A study of Mus musculus with 6 samples.

Results

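The probes described here are the sparse ends of a mouse DNA methylation array: probes that stand alone in the genome or have a single close neighbour. Autosomal probes were sorted by position on mouse build mm9, and a run joined probes whose starts lay at most 500 bp apart. Probes in runs of 1 (isolated probes) or 2 (pairs) were taken, with no filter on signal. This gave 3280 of 167117 autosomal probes (1.96%), of which 1326 were isolated and 1954 formed 977 pairs. The other 163837 autosomal probes lay in 21604 runs of 3 or more and served as the comparison.

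DNA came from pancreatic tissue of mice aged 12 weeks. On 3 arrays the mother had glucose intolerance, and on the other 3 the mother had normal glucose tolerance. The comparison asks how methylation of the offspring's pancreas differs with the mother's hyperglycemia. Strain, diet and how glucose intolerance was brought about are not given in the sources used here, and neither is whether arrays of the same group stem from different mice or mothers. The p-values below therefore measure the spread between these arrays, which may be partly technical.

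Methylated DNA immunoprecipitation (MeDIP) uses an antibody against 5-methylcytosine to pull down methylated DNA fragments, which were hybridised with the untreated input DNA of the same sample. A fragment is recovered more readily the more methylated CpG sites it carries, so the ratio of MeDIP over input mixes methylation with CpG density and is not a percentage of methylated molecules. Pancreas is mostly exocrine acinar tissue with scattered endocrine islets, and a bulk ratio averages over these cells. Ratios are given as log2 of the processed MeDIP over the processed input signal, and 0 is the median probe of each array. A difference of 1 unit is a doubling. Different probes hybridise with different efficiency, so levels of classes of probes are compared here only as medians over many probes.

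Precision was limited by the number of arrays and by signal. An array's median input signal after background subtraction was 24.9 to 41.9 units for maternal glucose intolerance, against 53.9 to 93.8 for normal tolerance, so input was brighter on all 3 normal tolerance arrays. The 3 glucose intolerance arrays shared a scan, normal tolerance replicate 1 was scanned alone and normal tolerance replicates 2 and 3 shared a scan, with red detector settings of 359, 394 and 421 V. No scan held arrays of both groups, so no within-scan comparison could be made. The tissue could not be checked against marker genes, because the scanner files give each probe an mm9 position and no gene, and the available gene table is on another build.

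Isolated probes and pairs had lower MeDIP over input ratios than probes in longer runs on every array. The median of the 3280 probes minus that of longer runs was -0.57, -0.39 and -0.34 units on the arrays of maternal glucose intolerance (replicates 1, 2 and 3), and -0.58, -0.34 and -0.30 on those of normal tolerance. The mean difference was -0.42 ± 0.12 (SD, n = 6 arrays; exact two-sided sign-flip test, p = 0.031, the smallest it can give with 6 arrays; 0.0341 after Benjamini-Hochberg adjustment over 12 such comparisons). The arrays share their probes, so the test speaks only of the direction on each array. Isolated and paired probes had the lower median on 19 of 19 autosomes.

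Isolated probes lay lower than pairs. Their median was -0.50 ± 0.13 units from that of longer runs, and the pairs' was -0.36 ± 0.11 (SD, n = 6 arrays). The gap between isolated probes and pairs, -0.14 ± 0.04, had the same sign on 6 of 6 arrays (exact sign-flip test, p = 0.031). The median of each probe's mean ratio over the arrays was -0.52 for isolated probes, -0.36 for pairs and -0.18 for the 2685 probes in runs of 3, and it was 0.03 for the 3912 probes in runs of 4. From 4 probes upward there was no steady order by run size: it was -0.10 in runs of 6, -0.05 in runs of 8 and 0.12 in runs of 10. Mean probe length was 51.4, 50.9, 49.8 and 48.8 nt in runs of 1, 2, 3 and 4. In runs of 6, 8 and 10 it was 49.6, 49.3 and 48.2 nt. Among these run sizes, a lower median thus came with longer probes, and the part of length in this order was not tested. The lowest medians were those of runs of 1, 2 and 3 probes. Against the first and last probes of longer runs only, isolated and paired probes still lay lower, by -0.28 ± 0.09 (SD, n = 6 arrays; exact sign-flip test, p = 0.031).

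**Figure D1:**
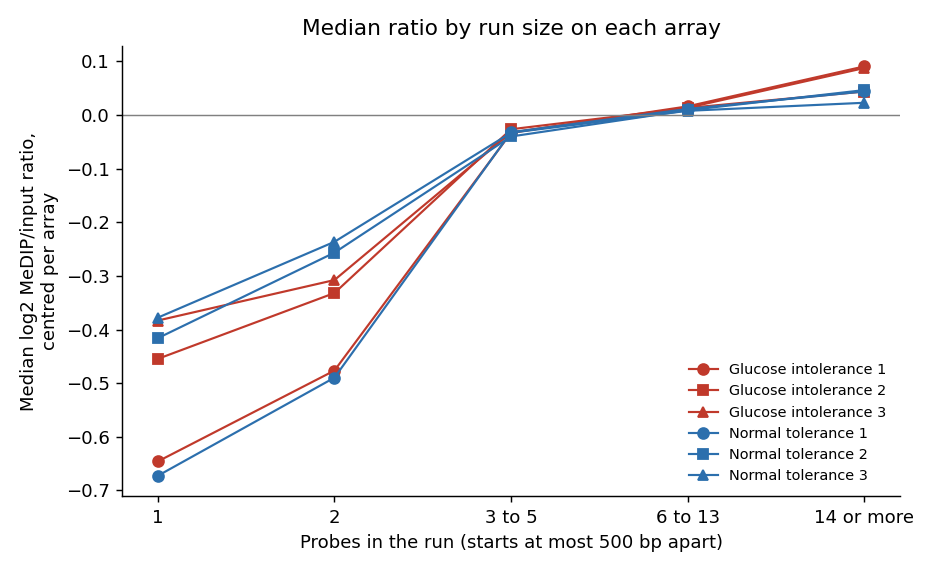
Median log2 MeDIP over input ratio (vertical axis, centred per array) by the number of probes in the run (horizontal axis), 1 line per array, red for maternal glucose intolerance and blue for normal tolerance. On every array the median is lowest for isolated probes, second lowest for pairs, and near 0 from runs of 3 to 5 probes on.

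Among single probes the ratios overlapped widely. Mean ratios of isolated and paired probes ran from -5.28 to 2.21, with the middle 90% from -2.70 to 1.2, against -2.31 to 1.40 in longer runs. Ratios under -3 were found in 119 of the 3280 (3.63%) against 2.04% of probes in longer runs, and 79 of the 119 had MeDIP above background on at most 2 arrays. Ratios over 1 were found in 265 (8.08%) against 13.95%. The lower median therefore came with a heavier lower tail and a thinner upper one.

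Both dyes were dimmer at isolated and paired probes, the MeDIP dye more so. Relative to longer runs the median log2 input signal was -0.19 ± 0.07 units and the median log2 MeDIP signal -0.64 ± 0.10 (SD, n = 6 arrays), each lower on 6 of 6 arrays (exact sign-flip test, p = 0.031 for each). The share of spots well above background differed by -3.34 ± 1.48 percentage points for input and by -8.09 ± 1.04 for MeDIP. In all, 2082 of the 3280 probes (63.5%) had input above background on every array and 1703 (51.9%) had both dyes above it, against 66.8% and 59.3% of probes in longer runs. With input above background on every array, the ratio difference was again -0.42. Within 5 classes of input brightness it was -0.38, so it was nearly as large among probes of like input signal. It was smaller with both dyes above background on every array (-0.32), with loess (-0.32) and with normexp (-0.22), so its size depended on filter and processing. A filter on the MeDIP signal itself takes out low ratios, and it kept fewer of the isolated and paired probes. The part of dim MeDIP spots in the difference was therefore not tested.

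Probe length moved with the result. Array probes were 45 to 60 nt long. Isolated and paired probes had a median length of 49 nt, and 33.0% were of the shortest length, 45 nt, against 50.7% in longer runs, where the median was 45 nt. The longest length, 60 nt, made up 20.1% against 12.8%. Of isolated probes 29.8% were of 45 nt, against 35.2% of probes in pairs, and these were not compared with each other at equal length. Ratios fell with length in both sets. The median over isolated and paired probes was 0.21 at 45 nt, -0.31 at 46 to 49 nt, -0.68 at 50 to 54 nt and -0.98 at 55 to 60 nt (means of 6 array medians). In longer runs it was 0.46, -0.12, -0.52 and -0.94 in the same classes.

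At equal length the difference was smaller, and it shrank as probes became longer. It was -0.24 ± 0.04 units at 45 nt, -0.19 ± 0.04 at 46 to 49 nt and -0.16 ± 0.04 at 50 to 54 nt (SD, n = 6 arrays), with 6 of 6 arrays lower in each class (exact sign-flip test, p = 0.031 for each, unadjusted over the 4 classes). At 55 to 60 nt it was -0.04 ± 0.05, lower on 5 of 6 arrays (exact sign-flip test, p = 0.09375). Averaged within the 4 length classes the difference was -0.15 units against -0.42 without regard to length, an alternative chosen after seeing the data. The base composition of the probes was not available here, and its part in the result was not tested.

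**Figure D2:**
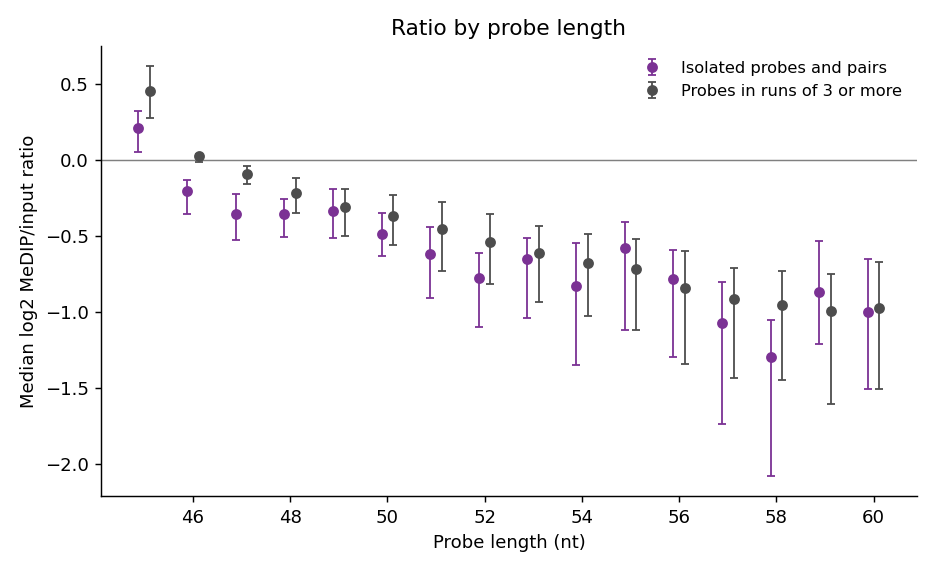
Median log2 MeDIP over input ratio (vertical axis) at each probe length in nt (horizontal axis) for isolated and paired probes (purple) and probes in longer runs (grey). Points are means of 6 array medians and bars run from the lowest to the highest array. The purple points lie below the grey ones at 45 to 54 nt, and the order is mixed from 55 nt on.

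Most isolated probes were not far from other probes. The nearest probe start lay at a median of 623.5 bp, and 1212 of the 1326 (91.4%) had a probe within 2500 bp on 1 side, 90 on both sides and 24 on neither. Up to 2500 bp the ratio did not fall steadily with distance: the mean of array medians was -0.44 at 501 to 520 bp, -0.38 at 521 to 600 bp, -0.57 at 601 to 700 bp, -0.47 at 701 to 1000 bp and -0.69 for the 67 probes at 1001 to 2500 bp. Within arrays the step from the second class to the third was -0.19 ± 0.09 units and the last step -0.22 ± 0.11 (SD, n = 6 arrays), each lower on 6 of 6 arrays. The step between them went the other way, 0.10 ± 0.10, on 5 of 6 arrays. These steps were not tested.

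The 24 isolated probes with no neighbour within 2500 bp stood apart. The mean of their array medians was -2.11 (range over arrays -2.99 to -1.19), and 16 had a mean ratio under -1, 9 under -3 and 3 above 0. They were chosen by distance after earlier values had been seen, so this is a description. Their input was bright rather than dim, at a median of 1.22 log2 units above the array median, while MeDIP stood at -1.66. Input was above background on every array for 18 of the 24, and both dyes for 8.

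The lowest of these lay in the first megabases of chromosome 14. A 58 nt probe at 3739143 to 3739200 had ratios of -5.23, -2.28 and -4.63 with maternal glucose intolerance and -7.09, -4.09 and -6.45 with normal tolerance (replicates 1, 2 and 3). Further 58 nt probes at 3187152, 3499740 and 6955140 had mean ratios of -4.74, -4.34 and -4.81. MeDIP was above background on 1 of the 6 arrays for each of these probes, so these ratios rest on dim spots and are not measured levels. With each dim MeDIP spot raised to the smallest MeDIP signal that stood well above background on that array, the first probe's group means were -2.52 (maternal glucose intolerance) and -4.30 (normal tolerance). These are upper limits only as far as that signal holds as a cut-off for these spots. On chromosome 7, 50 nt probes at 22705852 and 23929041, more than a megabase apart, had nearly the same values on each array. The first gave -4.35, -0.98 and -2.76 with maternal glucose intolerance and -5.28, -3.58 and -5.18 with normal tolerance. The second gave -4.21, -0.89 and -2.89, and -5.26, -3.11 and -5.2. At the other end, a probe at 59854904 to 59854957 on chromosome 11 had a mean ratio of 0.91, with dim input, above background on 3 of 6 arrays.

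Some isolated and paired probes recurred in the same local layout. A layout was called recurring where at least 3 probes of 1 chromosome had the same length, run size, distance to the nearest probe and length and side of that neighbour, with starts at most 5 Mb apart, a rule written after values had been seen. There were 9 such sets with 37 probes, on chromosomes 4, 5, 7 and 10. Their median mean ratio was -2.93, against -0.42 for the remaining isolated and paired probes, and 18 of the 37 lay under -3. MeDIP was above background on all 6 arrays for 11 of the 37 and on at most 2 arrays for 17, so many of these low values rest on dim spots. Their median input stood 1.43 log2 units above the array median, against -0.17 for the rest. No probe sequence was read, so whether such probes share their sequence was not tested.

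The layout on chromosome 10, from 103604933 to 103631550, held 3 probes that came back 4 times in steps of 8509 or 8510 bp. An isolated 48 nt probe was followed after 825 bp by a pair of a 57 nt and a 45 nt probe with starts 220 bp apart. Mean ratios of the 48 nt probe were -0.68 to -0.58 over the 4 repeats, those of the 57 nt probe -3.76 to -3.17, and those of the 45 nt probe -2.35 to -2.25. Probes at the same place in the layout differed by little, with a median SD between repeats on an array of 0.18, 0.29 and 0.14 units, while the mean ratios of the pair's probes, 220 bp apart, differed by more than a unit in 3 of the 4 repeats. MeDIP was above background on 4 to 6 arrays at the 57 nt place, on 5 or 6 at the 45 nt place and on all 6 at the 48 nt place. The input signal was above the array median at all 3 places, by 0.57, 2.64 and 1.57 log2 units. Values also kept their order over arrays: at the 57 nt place glucose intolerance replicate 2 was the highest in every repeat (-2.16, -2.11, -1.82 and -2.08) and normal tolerance replicate 1 was lowest or second lowest.

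**Figure D3:**
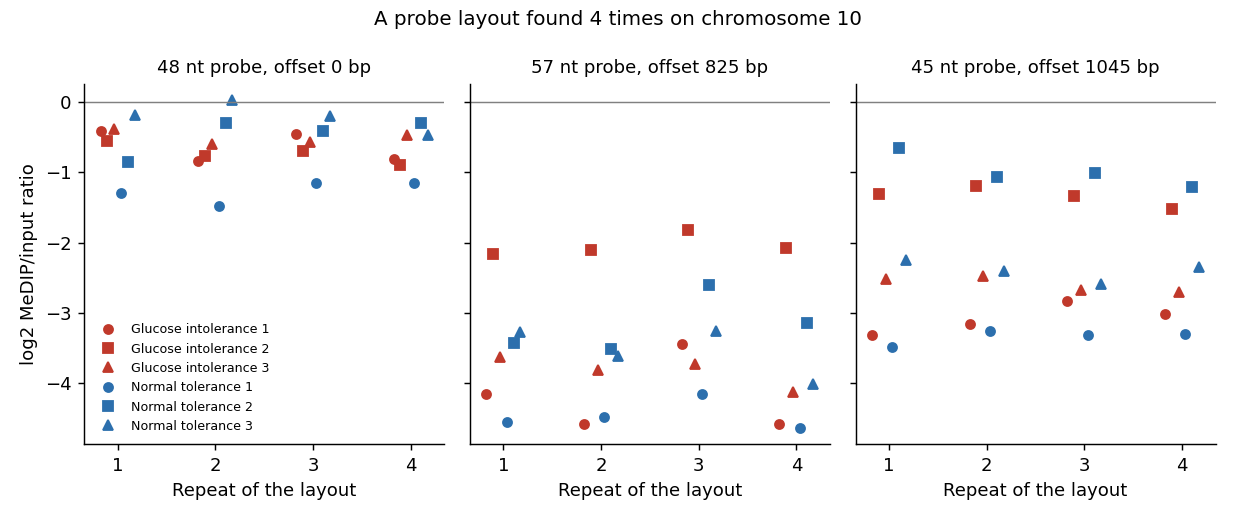
Log2 MeDIP over input ratio (vertical axis) on each of 6 arrays at the 3 places of the layout on chromosome 10, by repeat of the layout (horizontal axis). Each point is 1 probe on 1 array, and the 4 repeats of a place give nearly the same values on each array.

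On chromosome 7 between 20918989 and 23575432 an isolated 57 nt probe with its nearest probe at 521 bp came back 6 times, with MeDIP above background on only 1 or 2 arrays. Its mean ratios were -4.12 to -3.35 as given and -3.06 to -2.35 with dim spots raised. This bounds them from above only as far as the raised signal holds as a cut-off there. A pair of a 45 nt and a 55 nt probe in the same stretch came back 3 times. The 45 nt probe, with MeDIP above background on all 6 arrays, was at -2.05 to -1.89. The 55 nt probe, above it on 1 or 2 arrays, was at -3.20 to -2.87, or -2.37 to -2.18 with dim spots raised. On chromosome 4 between 73266763 and 73327523 a pair came back 5 times in steps of 15099 to 15160 bp. Its 51 nt probe, with MeDIP above background on 5 arrays, was at -3.26 to -2.93. Its 57 nt probe had MeDIP above background on at most 1 array, and its ratio of -2.28 to -2.00 became -0.70 to -0.33 with dim spots raised. On chromosome 5 between 94955426 and 95611799 an isolated 60 nt probe came back 3 times with MeDIP above background on 1 array, at -4.23 to -3.97, or -3.10 to -2.86 with dim spots raised. Without these 37 probes and the 24 far ones, an alternative chosen after seeing the data, the ratio difference from longer runs was -0.40. So few of the isolated and paired probes were left out that a median could hardly move.

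The isolated or paired probes with the highest and lowest ratio, among those with both dyes above background on every array, are given as a description. The highest was an isolated 45 nt probe on chromosome 17 at 28622595 to 28622639, with ratios of 2.13, 1.90 and 2.28 with maternal glucose intolerance and 1.82, 2.28 and 2.10 with normal tolerance. It was followed by a 56 nt probe of a pair on chromosome 4 at 57866154 to 57866209 (mean 1.88) and a 45 nt probe of a pair on chromosome 17 at 27773293 to 27773337 (mean 1.84). The groups overlapped at all 3. The lowest was an isolated 49 nt probe on chromosome 7 at 23139083 to 23139131, in the stretch of the recurring layouts, with ratios of -5.97, -3.28 and -4.69 against -5.80, -4.65 and -5.50. Its input stood 5.26 log2 units above the array median and its MeDIP signal 0.24, so its low ratio came with a very bright input. A 52 nt probe on chromosome 11 at 95275820 to 95275871 (mean -4.01) and a 60 nt probe on chromosome 5 at 95902899 to 95902958 (mean -3.83) had the same pattern, with input 4.89 and 3.99 units above the median.

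The probes of a pair differed more in ratio than neighbours within longer runs did, though not under every background method. Starts within a pair lay 190 to 499 bp apart, with a median of 213 bp. The median absolute difference of ratios within pairs was 0.92 to 1.24 units on the 6 arrays, against 0.82 to 1.09 between neighbours in longer runs at the same spacing. The excess was 0.11 ± 0.03 units (SD, n = 6 arrays), above 0 on 6 of 6 arrays (exact sign-flip test, p = 0.031). With normexp it was 0.0075 and did not pass (exact p = 0.5). Among the alternatives on scanner ratios that passed it ran from 0.051 with runs joined at 300 bp to 0.422 with runs joined at 1000 bp. It was 0.237 with input above background on every array. With the authors' deposited values it was 0.033, which does not compare like values, since these carry a share of their neighbours' signal (described below). By mean ratio, 431 of the 977 pairs had both probes below 0, 180 had both above and 366 had them on opposite sides.

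Across pairs the ratios of both probes correlated at r = 0.16 to 0.26 on the 6 arrays. Across neighbours in longer runs r was 0.23 to 0.31, and across the gap of 501 to 1000 bp that bounds an isolated probe or pair it was 0.13 to 0.21. These are correlations across probes of 1 array, which share its hybridisation, and are given as a description. The group difference of a probe said little about that of its partner: across pairs the differences correlated at r = 0.054, and across neighbours in longer runs at 0.067.

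The authors also deposited a table of log2 values for the same probes, and isolated probes show how its values relate to the scanner files. Its values were set against the log2 ratio of the unsubtracted spot signals, array by array. Over isolated probes r was 0.990 to 0.999. Over paired probes r was 0.948 to 0.956, and in longer runs 0.924 to 0.935. When the deposited value of a paired probe was fitted on its own unsubtracted scanner ratio and that of its partner, the partner's coefficient was 0.420 to 0.423 of its own for the 447 pairs with starts 190 to 210 bp apart, 0.299 to 0.316 for the 389 pairs at 211 to 300 bp, and 0.021 to 0.041 for the 141 pairs at 301 to 500 bp. A deposited value thus carried a share of its neighbour's signal that faded with distance, and for an isolated probe nearly all of it came from the probe itself.

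The deposited table shows the same order of levels. Its medians for isolated and paired probes were -0.35 to -0.30 on the 6 arrays, against 0.038 to 0.047 in longer runs. Its SD across probes was 0.86 to 0.98 for isolated probes, 0.77 to 0.83 for pairs and 0.73 to 0.78 for longer runs. These SDs do not compare like values, since probes with close neighbours carry a share of their signal in this table. How much of the order of SDs came from that was not tested. What other steps the authors took to make this table is not given in the sources used here.

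The spread across probes was similar in both sets on the scanner ratios. The SD across isolated and paired probes exceeded that across probes in longer runs by 0.06 ± 0.05 units (SD, n = 6 arrays), was higher on 5 of 6 arrays and did not pass the test (exact sign-flip test, p = 0.0625). Glucose intolerance replicate 2, at -0.02, was the exception. Without the recurring layouts and far probes, an alternative chosen after seeing the data, the excess was 0.03 (exact sign-flip test, p = 0.22). It depended on the filter and background method: it passed the exact test (p = 0.031) at 0.11 with input above background on every array and at 0.09 with both dyes above it, and it was -0.01 with the normexp background model.

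The spread between arrays of 1 group was larger for isolated and paired probes. The median within-group SD was 0.42 units against 0.37 in longer runs over all probes with a value on every array, 0.35 against 0.31 among the tested probes, and 0.31 against 0.29 among probes with both dyes above background. The gap thus narrowed as dim spots were left out. Within both sets the normal tolerance arrays varied more than the glucose intolerance arrays, with median SDs of 0.37 and 0.28 for tested isolated and paired probes and 0.33 and 0.24 for longer runs. The glucose intolerance arrays shared a scan and the normal tolerance arrays did not all do so. Spread between samples and spread between scans therefore cannot be told apart here. These medians over probes were not tested.

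Between the groups, no isolated or paired probe passed the test. A probe was tested where its input was above background on every array, which kept 2055 of the 3280: 1198 had dim input on at least 1 array and 27 more lacked enough values once outlier spots were left out. With limma and Benjamini-Hochberg adjustment over all 113885 tested probes of the array, 0 of the 2055 passed an adjusted p of 0.05, and the lowest adjusted p was 0.103. The background was 0.000878% of all tested probes, a single probe in a longer run. Calls depended on the method: leaving out normal tolerance replicate 1 gave 95, and 7 to 204 passed under 6 of the alternatives listed at the end. The share of all tested probes under those settings is not given, so these counts do not set isolated and paired probes apart.

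At an unadjusted p under 0.05 in limma there were 393 of 2055 (19.1%), beside 15.9% of all tested probes. Of these, 260 (12.7%) were higher with maternal glucose intolerance, beside 10.4%, and 133 (6.47%) were lower, beside 5.56%. The 3 arrays of one group lay all above or all below the other 3 for 269 and 177 probes, together 21.7%, beside 22.7% of all tested probes. The shares were close to the background by both measures, and isolated probes (160 of 834) and pairs (233 of 1221) had nearly equal shares. Without glucose intolerance replicate 2 the count of 393 became 236, and without normal tolerance replicate 3 it became 224. With the scan as a random block in limma it became 135. The shares of all tested probes in these refits are not given.

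The preponderance of higher probes depended on centring. The median difference of the 2055 probes was 0.15 units, beside 0.13 for all tested probes. Of the 2055, 1301 lay above 0, beside 71580 of all 113885 tested probes. Of the 393, 66.2% were higher, beside 65.1% of the 18153 tested probes at such a p, so the preponderance was common to the array. With each array centred on the tested probes 51.6% of 343 were higher, with quantile normalization 51.6% of 467, with loess 44.7% of 376 and with normexp 82.1% of 598. No direction for isolated and paired probes as a class follows from these counts, since the split turns with the scaling.

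Set against longer runs on the same array, the group difference of isolated and paired probes was near 0. Among tested probes the median of isolated and paired ones minus that of longer runs was -0.43 ± 0.09 units with maternal glucose intolerance. It was -0.41 ± 0.13 for normal tolerance (SD, n = 3 arrays a group). The difference of -0.02 was far smaller than this spread (exact two-sided permutation test over arrays, p = 0.7; 3 arrays against 3 cannot go below 0.1). Its sign turned when glucose intolerance replicate 1 (0.03), normal tolerance replicate 2 (0.01) or normal tolerance replicate 3 (0.03) was left out. The difference taken per probe has the opposite sign, with a median of 0.15 against 0.14 in longer runs. Larger differences were more frequent among isolated and paired probes: of those tested and with a value on every array, 9.34% differed by more than 1 unit between the group means, against 5.61% in longer runs. Among probes with both dyes above background it was 5.17% against 3.14%.

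**Figure D4:**
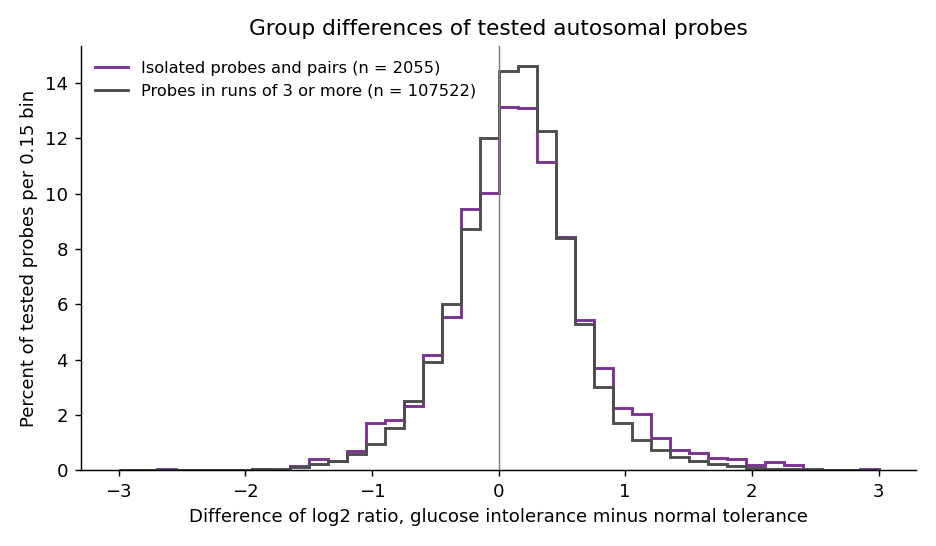
Distribution of the difference of group means, maternal glucose intolerance minus normal tolerance, in log2 units (horizontal axis) as the percent of tested probes per bin (vertical axis), for 2055 isolated and paired probes (purple) and 107522 probes in longer runs (grey). Both lines peak just above 0, and the purple line is somewhat wider.

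The probes with the lowest p in each direction are described next, and none reached an adjusted p of 0.05 in limma (range 0.103 to 0.127). Their differences include the median shift of 0.15 units. Where MeDIP spots were dim, a further value is given in which a dim spot takes the smallest MeDIP signal that was well above background there (its own value was kept where higher).

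Among higher probes the clearest by signal was an isolated 45 nt probe on chromosome 6 at 83523685 to 83523729, with MeDIP above background on all 6 arrays. Its ratios were 0.20, 0.45 and 0.19 with maternal glucose intolerance and -1.16, -1.10 and -2.02 with normal tolerance. The difference was 1.71 ± 0.29 (SE, limma), and it lay in the input dye, which differed by -1.55 between the groups after centring on each array, while MeDIP differed by 0.03. A 56 nt probe of a pair on chromosome 5 at 130547899 to 130547954 was at -0.12, 0.82 and 0.25 against -1.83, -1.86 and -1.96. Its difference of 2.20 ± 0.27 was made up of a lower input (-1.14) and a higher MeDIP signal (0.93), with 1 dim MeDIP spot.

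A 60 nt probe of another pair on chromosome 5, at 115265093 to 115265152, was at -1.91, -0.67 and -1.10 against -3.85, -3.62 and -4.77, a difference of 2.85 ± 0.39 that was 2.65 with its dim spot raised. An isolated 53 nt probe on chromosome 6 at 6904829 to 6904881 was at -0.50, -0.14 and -0.51 against -2.01, -1.79 and -2.63, and here the MeDIP signal made up the difference (2.09, against 0.46 for input). An isolated 53 nt probe on chromosome 19 at 6059908 to 6059960 had a mean of -2.15 against -3.90. With MeDIP above background on 1 of 3 normal tolerance arrays, its difference of 1.74 became 1.13 with dim spots raised. A 60 nt probe of a pair on chromosome 18 at 42433707 to 42433766, with the lowest p of all, had a mean of -1.07 against -2.87, but MeDIP was well above background on only 1 array, of maternal glucose intolerance. With dim spots raised the means were -1.06 and -1.23, and no fold is given. In each of these 6 probes, picked for low p, the 3 glucose intolerance arrays lay above the 3 others.

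Among lower probes, an isolated 58 nt probe on chromosome 11 at 30550552 to 30550609 had ratios of -2.35, -1.93 and -1.56 with maternal glucose intolerance and -0.40, -0.24 and 0.22 with normal tolerance. The difference of -1.81 ± 0.28 (SE, limma) lay in the MeDIP dye (-1.62), and all MeDIP spots were above background. A 54 nt probe of a pair on chromosome 18 at 37879119 to 37879172 was at -1.72, -1.89 and -2.38 against -0.28, -0.64 and -0.16, where input differed by 0.90 and MeDIP by -0.86. A 45 nt probe of a pair on chromosome 14 at 27392059 to 27392103 was at -2.46, -2.47 and -2.95 against -1.36, -1.07 and -0.84.

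A 52 nt probe on chromosome 7 at 12806233 to 12806284 had means of -0.80 and 0.36, and a 60 nt probe on chromosome 1 at 78506540 to 78506599 had means of -0.73 and 0.42. A 60 nt probe on chromosome 4 at 116206177 to 116206236 had means of -3.74 and -1.07. No glucose intolerance array had MeDIP above background there. With dim spots raised it was 1.53-fold lower, and with normexp it differed by -0.41 (adjusted p 0.18, limma). Neither is a measured fold. Of the 12 probes the members of pairs were 5 of the 6 lower ones and 3 of the 6 higher ones, where 1221 of the 2055 tested probes belonged to pairs. The groups did not overlap at any of the 12, but these were picked for low p. They also did not overlap at 21.7% of the 2055 tested isolated and paired probes and 22.7% of all tested probes.

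**Figure D5:**
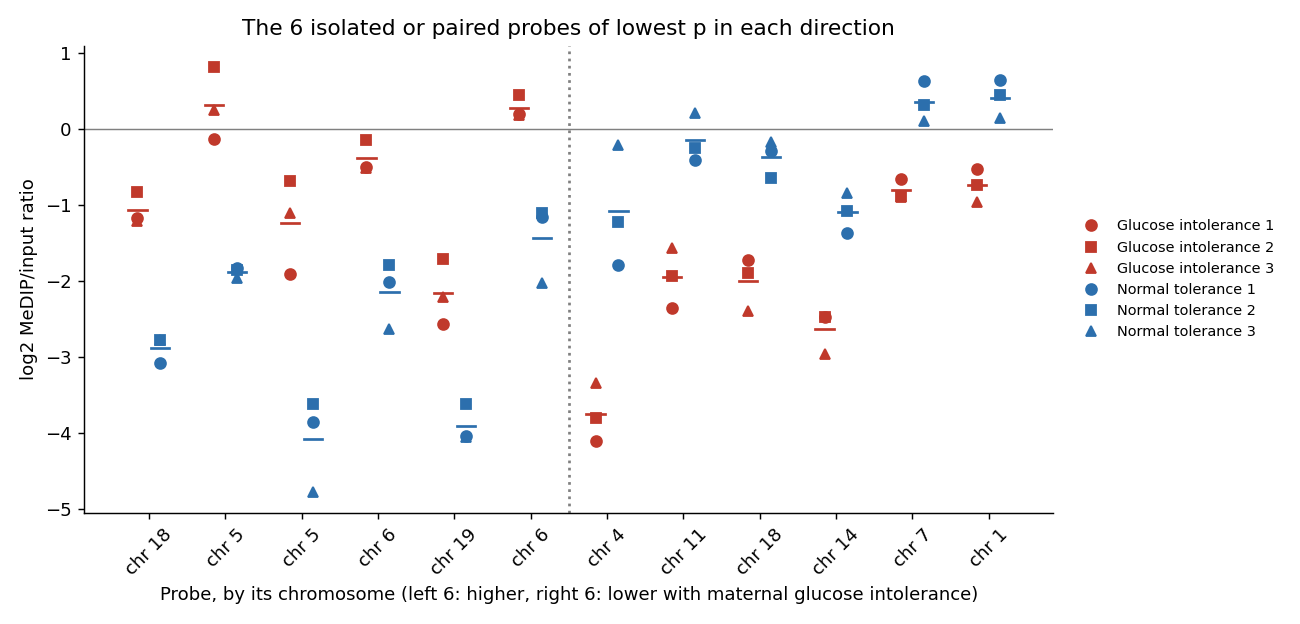
Log2 MeDIP over input ratio (vertical axis) on each array for the 12 isolated or paired probes with the lowest p, named by chromosome in the order of p within each direction (horizontal axis), 6 higher on the left and 6 lower on the right. Points are arrays and short lines are group means (n = 3 each). The groups do not overlap at any of the 12 probes, which were picked for low p, and none passed the adjusted threshold.

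Of the 977 pairs, 405 had both probes tested, and in 221 of these both differences had the same sign. That is 54.6%, beside 56.4% of all 64677 neighbouring probes of 1 run that were both tested. Both probes had an unadjusted p under 0.05 in limma in the same direction in 8 pairs, 5 higher and 3 lower. These are 1.98% of the 405, beside 1.22% higher and 0.529% lower among all such neighbours. The shares of pairs were close to the background, and the pairs below are given as a description. The pair on chromosome 1 at 78506344 and 78506540 (starts) was lower at both probes, by -0.83 ± 0.24 and -1.15 ± 0.23 (SE, limma). Its first probe was at -2.43, -2.26 and -1.82 with maternal glucose intolerance and -1.49, -1.43 and -1.12 with normal tolerance. Its second was at -0.52, -0.73 and -0.95 against 0.65, 0.45 and 0.16.

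The pair on chromosome 8 at 3566769 and 3566985 was lower by -1.22 ± 0.26 and -0.82 ± 0.25, and the pair on chromosome 17 at 40346575 and 40346780 by -0.97 ± 0.23 and -1.0 ± 0.36. All MeDIP spots of these 3 lower pairs were above background, and in all 6 probes, picked for low p, the groups did not overlap. Levels within a pair could still differ: the second probe on chromosome 17 had means of -2.86 and -1.86 where the first, 205 bp away, had -1.21 and -0.24.

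Among the higher pairs, the one on chromosome 11 at 55234511 and 55234719 had all MeDIP spots above background and differed by 0.73 ± 0.25 and 1.06 ± 0.24. Its first probe was at -0.70, -0.45 and -0.35 with maternal glucose intolerance against -0.84, -1.48 and -1.39, and its second at -1.73, -1.41 and -1.34 against -2.69, -2.24 and -2.75. At both probes both dyes were lower relative to the array median with maternal glucose intolerance, input by -0.91 and -1.19 and MeDIP by -0.31 and -0.25. The pair on chromosome 13 at 48370050 and 48370263 differed by 1.32 ± 0.49 and 0.99 ± 0.33, and the groups overlapped at its first probe. MeDIP at that first probe was above background on 2 of 3 normal tolerance arrays, and its difference was 1.26 with the dim spot raised. In the pair on chromosome 6 at 117702726 and 117702943 the first probe had no MeDIP spot above background in either group, so it has no measured fold, and the second differed by 1.27 ± 0.31. The adjusted p in limma of the probes in these 6 pairs was 0.127 to 0.257.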

How the data were processed

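Immunoprecipitated DNA was labelled with Cy5 and input DNA with Cy3 on all 6 arrays, per the labels' protocols, so a dye effect does not cancel. The deposited scanner files (Agilent Feature Extraction 11.0.1.1, build mm9) hold spot intensity values from which background was subtracted and whose dyes were scaled by a linear fit, per the file headers. Their log10 ratio, deposited in the same files, matched the log2 ratio of the processed intensities within 0.01 for 96.7% of 180465 spots and was used as a check. The authors also deposited a table on a log2 scale, whose array medians were 0.027 to 0.038. Its scale, centring and smoothing are not stated, its direction was taken from the correlation with the scanner ratios, and it served as an alternative.

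From these files, 5827 control spots were left out and outlier spots set to missing. The log2 ratio of processed Cy5 over Cy3 had each array's median over its 174638 non-control probes subtracted. Group differences were fitted with limma 3.58.1 (R 4.3.3; lmFit, eBayes, Benjamini-Hochberg) over every non-control probe with input above background on all arrays and at least 2 values per group. Contrasts of medians were taken per array and tested by exact sign flips or permutations. Scripts were tested on simulated data with planted effects. Named probes were, for each direction, the 6 of lowest p; the 3 with the highest and the 3 with the lowest ratio among probes with both dyes above background on every array, and the 3 pairs in each direction with the lowest larger p. The probes, lists and tests were chosen with earlier results of these data known. The planned normexp alternative (offset 50) used median spot signals, because the files hold no mean signals. The scan stood for the slide as a block. The main fit had no replicate block, because the labels do not say that a number marks a shared litter or batch. Same-numbered arrays of the groups deviated together at r = 0.49, 0.45 and 0.017. Whether they are pairs is not known, and the block served as an alternative.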

Additional observations from a re-analysis of the deposited data

How the results depend on the processing

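The lower ratio of isolated and paired probes kept its direction under all 13 alternatives that used every array, at -0.65 (runs joined at 1000 bp) to -0.15 (within classes of probe length), and at -0.44 to -0.39 with 1 array left out, where the exact test over 5 arrays cannot go below p = 0.0625. The excess difference within pairs was 0.0075 with normexp (exact p = 0.5), 0.237 with input above background, 0.033 with the deposited values, 0.051 with runs joined at 300 bp, 0.422 at 1000 bp and 0.10 to 0.115 with 1 array left out. The excess SD across probes, relative to longer runs, was 0.113 with input above background, 0.086 with both dyes above it and 0.058 with quantile normalization. It was 0.107 with the authors' deposited values and 0.123 with runs joined at 300 bp, and all 5 were past the threshold. Deposited values carry a share of their neighbours' signal, and those of isolated probes hardly any, so the 0.107 does not compare like values. Nor does the 0.033 for the difference within pairs. The excess was -0.0063 with normexp and 0.047 to 0.079 with 1 array left out. The group difference relative to longer runs reversed to 0.022 with the deposited values, 0.065 with runs joined at 1000 bp and 0.045 within length classes, and ran from -0.096 to 0.030 with 1 array left out. None of these group differences passed, and none could, since the exact permutation test cannot go below p = 0.1 with 3 arrays against 3, nor with fewer.

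The limma count past the adjusted threshold, 0, became 7 with both dyes above background, 118 with normexp, 52 with quantile normalization, 204 with the deposited values, 24 with trended robust variance and 137 with a replicate block. It was 0 to 95 with 1 array left out, 95 without normal tolerance replicate 1. The count at an unadjusted p under 0.05 became 671 with no filter on dim signal, 598 with normexp, 735 with the deposited values, 2016 of 11421 tested with runs joined at 300 bp, 21 of 126 at 1000 bp, 135 with the scan as a random block and 224 to 562 with 1 array left out. With the replicate block it was 553. For none of these settings is the share of all tested probes given. The counts therefore show how calls moved with the method, and nothing particular to isolated and paired probes. As a hint from the data, 2 of 3 glucose intolerance arrays deviated most like the array of their own number and the other did not. The group difference relative to longer runs was -0.019 with the block (exact sign-flip test, p = 0.75, over 3 differences, which are too few to pass). Of 382 refits of the 23 named probes with an unadjusted p under 0.05, 90 passed the adjusted threshold and 0 reversed, with an adjusted p of 0.00947 to 0.938. The causes of these changes were not tested. Ratios of probes with dim MeDIP spots, among them most of those under -3, have no measured lower end.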
